A study of Saccharomyces cerevisiae with 12 samples.

Results

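Aminoacyl-tRNA synthetase genes of budding yeast were followed in RNA-seq of a wild-type strain and of a strain without dihydrouridine synthases. The members were chosen by systematic gene name from the deposited RNA-seq tables and are 36 of the 6612 features listed: 22 whose proteins work in the cytosol, among them the cofactor ARC1, and 14 whose proteins work in mitochondria. The study maps dihydrouridine (D), a reduced form of uridine that dihydrouridine synthase (DUS) enzymes install in RNA. The libraries used here are its RNA-seq libraries of polyA RNA, 3 of WT and 3 of DUS KO, made beside its D mapping libraries without the borohydride treatment. WT is the strain BY4741. DUS KO carries deletions of DUS1, DUS2, DUS3 and DUS4 together (dus1Δ dus2Δ dus3Δ dus4Δ) and came from a cross of a dus1Δ dus2Δ strain with a dus4Δ dus3Δ strain, from which spores were isolated, so its background can differ from BY4741 at other loci. The labels put the cultures of both strains in mid-log phase, whereas the methods give the culture used for yeast RNA an optical density above that usual for this phase. Neither the labels nor the methods say whether replicates were separate cultures, so the p-values below measure the spread between these libraries, which may be technical.

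An aminoacyl-tRNA synthetase joins an amino acid to the tRNAs that read its codons, and every round of translation draws on the charged tRNAs it makes. Yeast translates in the cytosol and, for a few proteins of the respiratory chain, inside mitochondria, and most amino acids have a separate nuclear gene for each compartment. For alanine, cysteine, glycine, histidine and valine, a single gene (ALA1, CRS1, GRS1, HTS1 and VAS1) gives both the cytosolic and the mitochondrial protein, so the cytosolic class also holds the source of those mitochondrial enzymes. D is a standard modification of the tRNAs that these enzymes charge.

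The strains were first checked against their labels. DUS1 and DUS4 had no counts in any DUS KO library, and DUS2 had 0, 0 and 3 counts, against 50 to 214 counts for these genes in the WT libraries. DUS3 had estimated counts of 129, 82.0 and 112 in the WT libraries, against 64.1, 52.2 and 6.49 in those of DUS KO. Most of these are not whole numbers, which means that reads were divided with another feature, and the sum with YLR400W was whole within 0.02 in all 6 libraries (154, 94 and 155 counts for the WT replicates, against 122, 96 and 22 for those of DUS KO). DUS3 overlapped between the strains and was not called (edgeR, adjusted p = 0.577), so its deletion could not be checked from these counts. LYS2, an enzyme of lysine synthesis, fell from a mean of 39.9 to 0.607 CPM, counts scaled to the depth of the library (edgeR, adjusted p = 0.00296). Total counts per library ranged from 4336794 to 5652837 in WT and were 5500084, 2856581 and 656162 in DUS KO, so replicate 3 of DUS KO is by far the shallowest library. The markers of mating type a, the type of BY4741, summed to 447 to 1010 TPM in WT and 2000 to 2590 in DUS KO, with 5 of 5 genes at an unadjusted p under 0.05 and 0 of 5 called by edgeR or limma-voom, whereas DESeq2 called 3 (MFA1, MFA2 and STE6). Markers of mating type alpha were low in both strains, at 5.11 to 8.26 TPM in WT and 2.90 to 6.01 in DUS KO. Of 11 stress and diauxic genes tested, 0 were called by edgeR or limma-voom, nor by DESeq2, which gave an adjusted p to only 3 of them, 1 was at an unadjusted p under 0.05 (lower in DUS KO) with each of these, and the median log2 fold change was -0.49, with summed levels of 63.6 to 89.5 TPM in WT and 47.1 to 90.0 in DUS KO. The part of these differences in the results below was not tested.

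The cytosolic genes stood above the mitochondrial genes in both strains. Levels are given as transcript abundance in TPM, which is corrected for length and depth and so allows genes to be compared. The WT means of the cytosolic genes ran from 3.82 to 42.0 TPM with a median of 16.5, and those of the mitochondrial genes from 0.548 to 4.05 TPM with a median of 1.31. In DUS KO the medians were 17.5 TPM for the cytosolic class and 1.75 TPM for the mitochondrial class. Ordered by mean TPM over all 6 libraries, the cytosolic genes held ranks 728 to 3094 among the 6612 features and the mitochondrial genes ranks 3196 to 5950. On this mean the classes met without crossing, but the levels of AIM10 and GLN4 depend on a division of reads described further on. The lowest cytosolic gene was MES1 (YGR264C, methionyl-tRNA synthetase) with a mean of 4.44 TPM, and the highest mitochondrial gene was MSK1 (YNL073W, lysyl-tRNA synthetase) with 4.15 TPM. These neighbours did not differ beyond their spread, with 3.82 ± 1.56 TPM (SD, n = 3) for MES1 and 3.94 ± 0.917 for MSK1 in WT.

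**Figure D1:**
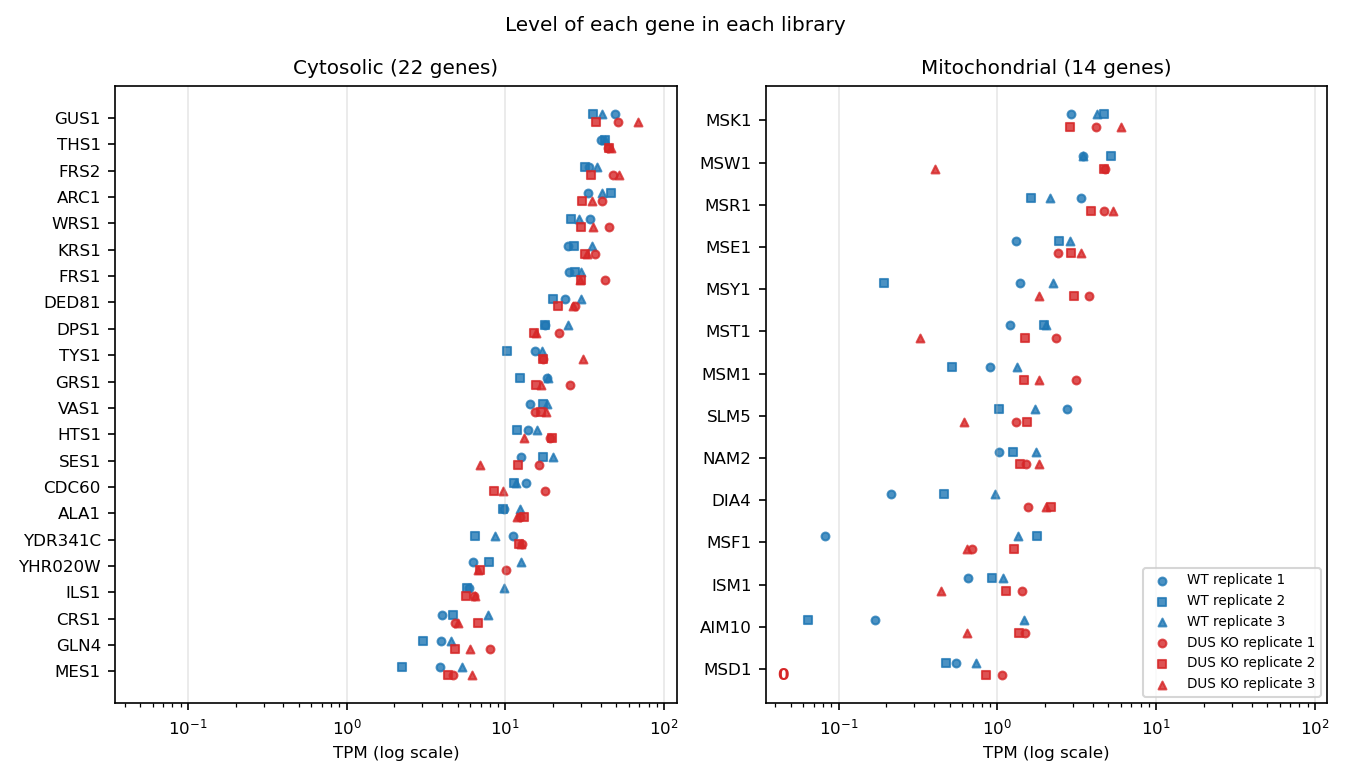
Level of each of the 22 cytosolic and 14 mitochondrial synthetase genes in TPM (log axis) in each of 6 libraries, blue for WT and red for DUS KO, with genes ordered by their mean; the red 0 marks MSD1 in replicate 3 of DUS KO. Cytosolic means in WT lie between 3.82 and 42.0 TPM and mitochondrial means between 0.548 and 4.05 TPM, and most genes show both colours over the same range.

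The same order appears within single libraries. The summed TPM of the mitochondrial genes was 4.82%, 5.72% and 5.80% of the summed TPM of the cytosolic genes in the WT libraries, and 6.53%, 7.17% and 5.15% in the DUS KO libraries. The WT mean was 5.45% ± 0.542 (SD, n = 3) and the DUS KO mean 6.28% ± 1.03 (SD, n = 3), and the strains overlap, with replicate 3 of DUS KO inside the WT range. The depth behind the classes differs in the same way. All 22 cytosolic genes had at least 100 counts in every library but replicate 3 of DUS KO, where they had 21 to 325, whereas 11 of the 14 mitochondrial genes stayed under 100 counts in every library. In replicate 3 of DUS KO the mitochondrial genes had 0 to 23 counts with a median of 4.50. The median coefficient of variation between WT replicates was 19.5% for cytosolic and 36.7% for mitochondrial genes. In DUS KO it was 20.5% and 39.7%.

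GUS1 (YGL245W, glutamyl-tRNA synthetase) and THS1 (YIL078W, threonyl-tRNA synthetase) had the highest means of the cytosolic class in both strains. GUS1 had 49.2, 35.8 and 40.9 TPM in WT and 51.2, 37.2 and 68.6 TPM in DUS KO. The strains overlap, and the high value is that of the shallowest library. THS1 varied little, at 40.1, 42.7 and 42.4 TPM in WT and 44.2, 45.0 and 46.1 TPM in DUS KO. At the low end of the class stood MES1 and GLN4 (YOR168W, glutaminyl-tRNA synthetase). MES1 had 3.85, 2.24 and 5.36 TPM in WT and 4.65, 4.38 and 6.16 TPM in DUS KO. GLN4 had 3.94, 3.03 and 4.57 TPM in WT and 8.00, 4.81 and 6.02 TPM in DUS KO. Its low level depends on how reads were divided with an overlapping feature, as described further on.

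The other cytosolic genes lay between these ends. KRS1 (lysyl) and WRS1 (tryptophanyl) had means of 29.0 ± 5.52 and 29.7 ± 4.16 TPM (SD, n = 3) in WT and 33.7 ± 2.64 and 36.8 ± 7.63 TPM in DUS KO. DED81 (asparaginyl) had 24.6 ± 5.05 TPM in WT and 25.2 ± 3.29 in DUS KO. The genes whose products serve both compartments had WT means of 16.7 ± 2.08 TPM for VAS1, 16.4 ± 3.51 for GRS1, 13.9 ± 2.0 for HTS1, 10.6 ± 1.49 for ALA1 and 5.48 ± 2.02 for CRS1. They were thus near or below the median of the class. In DUS KO their means were 16.7 ± 1.38, 19.3 ± 5.57, 17.4 ± 3.63, 12.5 ± 0.697 and 5.52 ± 1.03 TPM. TYS1 (tyrosyl) had 14.2 ± 3.56 TPM in WT and 21.8 ± 7.94 in DUS KO, and CDC60 (leucyl) had 12.2 ± 1.19 and 12 ± 5.13 TPM. The prolyl gene YHR020W and the arginyl gene YDR341C were lower in the WT means. YHR020W had 8.87 ± 3.22 TPM in WT and 7.94 ± 1.91 in DUS KO, and YDR341C had 8.73 ± 2.34 and 12.5 ± 0.254 TPM.

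Among the mitochondrial genes MSK1 and MSW1 (YDR268W, tryptophanyl-tRNA synthetase) were highest by the mean of all 6 libraries. MSK1, whose protein is also needed to import a cytosolic lysine tRNA into mitochondria, had 2.91, 4.67 and 4.23 TPM in WT and 4.20, 2.87 and 6.0 TPM in DUS KO. MSW1 had 3.47, 5.19 and 3.49 TPM in WT and 4.76, 4.69 and 0.404 TPM in DUS KO, the last value resting on 1 count. By the same mean the lowest members were MSD1 (YPL104W, aspartyl-tRNA synthetase) and AIM10 (YER087W, prolyl-tRNA synthetase). MSD1 had 0.547, 0.476 and 0.738 TPM in WT and 1.07, 0.850 and 0 TPM in DUS KO. It was the only member at 0 in a library, replicate 3 of DUS KO. AIM10 had 0.169, 0.0638 and 1.48 TPM in WT and 1.5, 1.37 and 0.646 TPM in DUS KO. A single WT library thus holds nearly all of the WT signal of AIM10. The level of AIM10, like that of GLN4, depends on how reads were divided with an overlapping feature. The order differed within the strains. In WT the lowest mean was that of DIA4, with 0.548 TPM, and in DUS KO the highest was that of MSR1 and the lowest mean after MSD1 that of MSF1. MSR1 (arginyl) had 2.38 ± 0.889 TPM (SD, n = 3) in WT and 4.65 ± 0.746 in DUS KO, and MSE1 (glutamyl) had 2.20 ± 0.794 and 2.91 ± 0.475 TPM. SLM5 (asparaginyl) had 1.84 ± 0.871 TPM in WT and 1.16 ± 0.481 in DUS KO, and MST1 (threonyl) had 1.73 ± 0.460 and 1.39 ± 1.01 TPM. NAM2, a leucyl-tRNA synthetase that also helps to splice mitochondrial introns, had 1.34 ± 0.369 TPM in WT and 1.57 ± 0.229 in DUS KO. MSF1 (phenylalanyl) and ISM1 (isoleucyl) had 1.07 ± 0.887 and 0.888 ± 0.215 TPM in WT and 0.872 ± 0.349 and 1.01 ± 0.512 TPM in DUS KO.

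For 14 amino acids the cytosolic and the mitochondrial gene can be set side by side. The cytosolic gene was higher in 6 of 6 libraries for all 14 pairs. In WT the ratio of mean TPM ran from 3.67 for arginine (YDR341C over MSR1) to 34.5 for aspartate (DPS1 over MSD1), with a median of 12.2. In DUS KO it ran from 2.37 for methionine (MES1 over MSM1) to 51.4 for phenylalanine (FRS2 over MSF1), with a median of 7.68. Arginine and methionine had the lowest ratios in both strains, at 3.67 and 4.16 in the WT means, against 2.69 and 2.37 in those of DUS KO. The ratio that differed most between strains was that of serine, at 30.2 in WT and 6.10 in DUS KO, where SES1 had a mean of 16.6 TPM in WT and 11.8 TPM in DUS KO and DIA4 a mean of 0.548 and 1.93 TPM. Proline followed with 15.5 and 6.77, but its mitochondrial gene is AIM10. For phenylalanine the ratio was 32.2 in WT and 51.4 in DUS KO, taken with FRS2. FRS1, the gene of the other subunit of that enzyme, had lower means, so a ratio with it would be lower. Its means were 27.6 TPM in WT and 34 in DUS KO, against 34.6 and 44.8 for FRS2. MSF1 had only 2 counts in WT replicate 1 and 2 in DUS KO replicate 3. No ratio was tested between the strains.

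**Figure D2:**
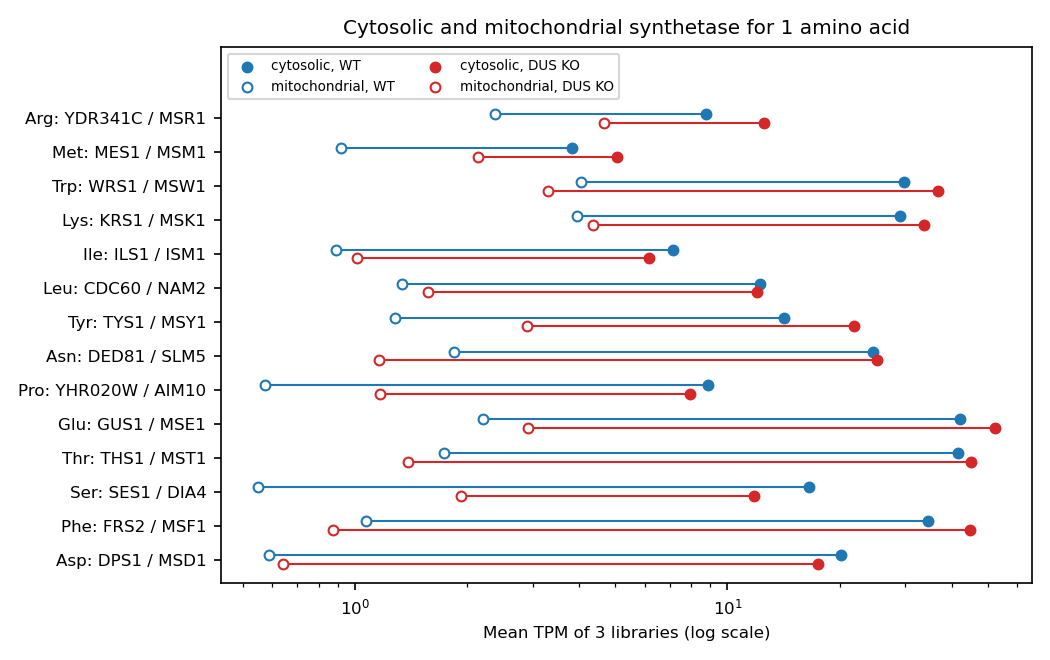
Mean TPM over 3 libraries (log axis) of the cytosolic gene (filled circle) and the mitochondrial gene (open circle) for each of 14 amino acids, in WT (blue) and DUS KO (red), ordered by the WT ratio. Every filled circle lies to the right of its open circle, by 3.67 times for arginine and 34.5 times for aspartate in WT.

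The strains were compared for all features at once, to ask whether loss of the DUS enzymes goes with other levels of the genes that charge tRNA. Features with enough counts (5884, all 36 members among them) were tested with edgeR's quasi-likelihood test, and p-values were adjusted over all of them by the Benjamini-Hochberg method. The log2 fold change is DUS KO over WT, on counts scaled by the trimmed mean of M-values (TMM). A feature is called at an adjusted p under 0.05. None of the 36 members was called, against 5 of 5884 features (0.085%), and DESeq2 (58 of 2006 features with an adjusted p called, 2.89%), limma-voom (0%), limma on log2(TPM + 1) (0.017%) and limma on log2(TPM + 0.1) (0.034%) called 0 members as well. DESeq2 gave an adjusted p to 22 of the 36 members, which were the 22 cytosolic genes. It gave none to any mitochondrial gene and so could not call one. The 5 features that edgeR called included the deleted genes DUS1, DUS2 and DUS4, and LYS2. With edgeR the lowest adjusted p of a member was 0.489 in the cytosolic and 0.666 in the mitochondrial class. At an unadjusted p under 0.05 edgeR placed 4 members lower in DUS KO (11.1%), beside 4.93% of all features, and 0 members higher, beside 3.33%. These 4 members of edgeR's test were all cytosolic: SES1, DPS1, ARC1 and ILS1. DESeq2 placed SES1, DPS1 and ARC1 under that level as lower (4.69% of all features) and the mitochondrial gene DIA4 as higher (3.45% of all features). With limma-voom SES1, DPS1, ARC1 and ILS1 were under it as lower (4.61% of all features) and the mitochondrial genes MSM1 and MSY1 as higher (5.59%). The direction turned with the scale. With total counts as the only scaling, 0 members were lower and 1 higher (MSR1), beside 105 and 442 of 5884 features. On log2(TPM + 1) 0 were lower and 3 higher (MSM1, MSR1 and DIA4), beside 53 and 721. On log2(TPM + 0.1) the same 3 were higher and 0 lower, beside 627 and 44. edgeR with TMM put no member under that level without replicate 3 of DUS KO, where 3.62% of all features were lower and 2.32% higher. It put SES1 alone under that level, as lower, without replicate 2 of DUS KO, where the shares were 3.11% and 2.23%. Without replicate 3 of DUS KO, the log2 fold changes were -0.55 for SES1, -0.46 for DPS1, -0.51 for ARC1 and -0.56 for ILS1. RNA from bulk cultures does not separate a lower level in every cell from fewer cells that express a gene.

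The median log2 fold change was -0.08 for the cytosolic genes, -0.03 for the mitochondrial genes and -0.02 for all features tested. Of the 22 cytosolic genes 16 had a negative value, of the 14 mitochondrial genes 8 did, and of all features 51.6% did. The sign of the cytosolic class follows the scale. On log2(TPM + 1) only 6 of 22 cytosolic genes were negative and their median was 0.22, beside 0.22 for all features. With total counts as the only scaling, 10 of 22 were negative and the median was 0.10 beside 0.16. Read against the median of all features, the cytosolic median lay below it in each of these 3 settings. On log2(TPM + 1) the 2 medians were nearly equal, at 0.216 and 0.219. With TMM scaling, the class median varied between libraries of a strain with an SD of 0.0655. The difference from all features was not tested. In TPM, 10.4% to 13.9% of each WT library and 8.76% and 5.17% of DUS KO replicates 2 and 3 went to RPL41B, a ribosomal protein gene of 78 nt. YLR154W-E, a feature of 204 nt, led DUS KO replicate 1 with 5.63%.

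**Figure D3:**
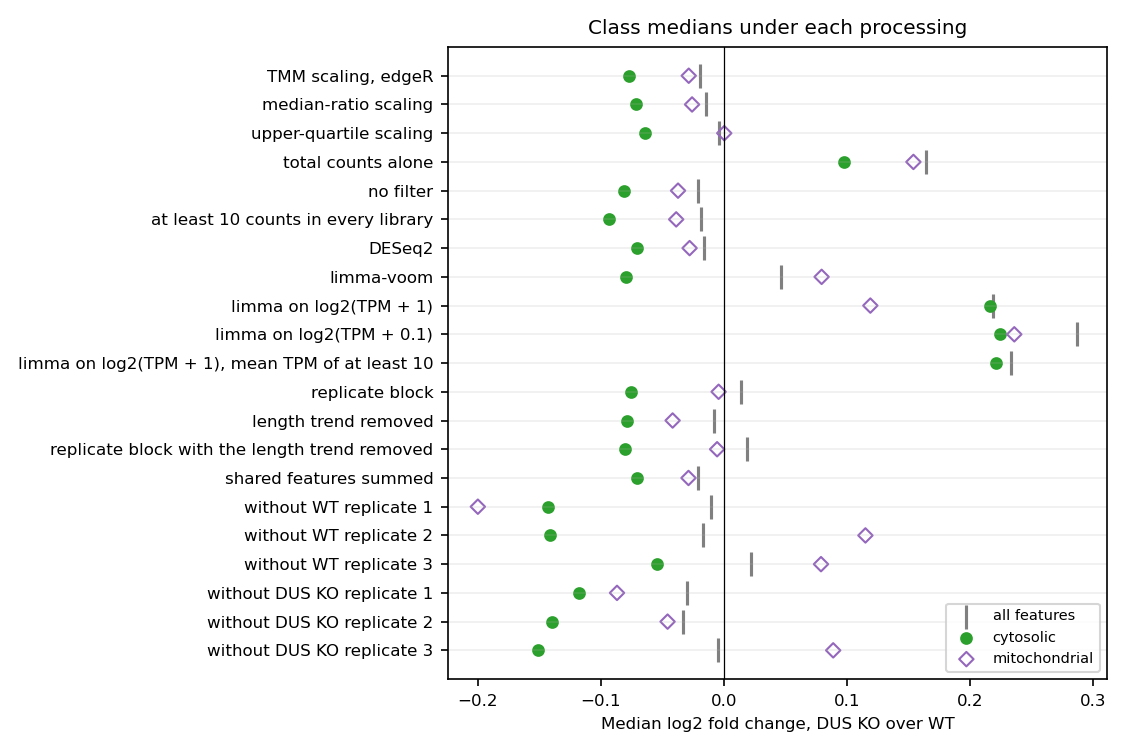
Median log2 fold change (DUS KO over WT) of the cytosolic genes (green circles), the mitochondrial genes (open purple diamonds) and all features (grey ticks) under each way of processing the data. With TMM the medians are -0.08, -0.03 and -0.02, and the settings on TPM or total counts put every median they give to the right of 0.

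The classes differed in how far single genes strayed and in how well each was measured. Cytosolic log2 fold changes ran from -0.76 to 0.40 with standard errors of 0.17 to 0.33 and a median standard error of 0.22. Mitochondrial values ran from -0.87 to 1.53 with standard errors of 0.36 to 1.04 and a median of 0.57. The wider mitochondrial range thus came with larger standard errors. Groups of 3 libraries that do not overlap in CPM were found for 5 cytosolic genes, all lower in DUS KO (SES1, ILS1, DPS1, ARC1 and THS1), and for 2 mitochondrial genes, both higher (MSM1 and DIA4). Of all features 7.68% were lower and 7.83% higher in this way. In TPM no member lay lower without overlap, while THS1, TYS1, YDR341C, GLN4, MSR1, MSM1 and DIA4 lay higher, beside 2.01% and 18.6% of all features. THS1 therefore changed side with the scale. MSM1 and DIA4 kept theirs, but neither was called (edgeR, adjusted p = 0.696 and 0.666). The genes higher in TPM were 4 of 22 cytosolic and 3 of 14 mitochondrial genes. These numbers are near the share of all features and are not read as a result about the members.

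**Figure D4:**
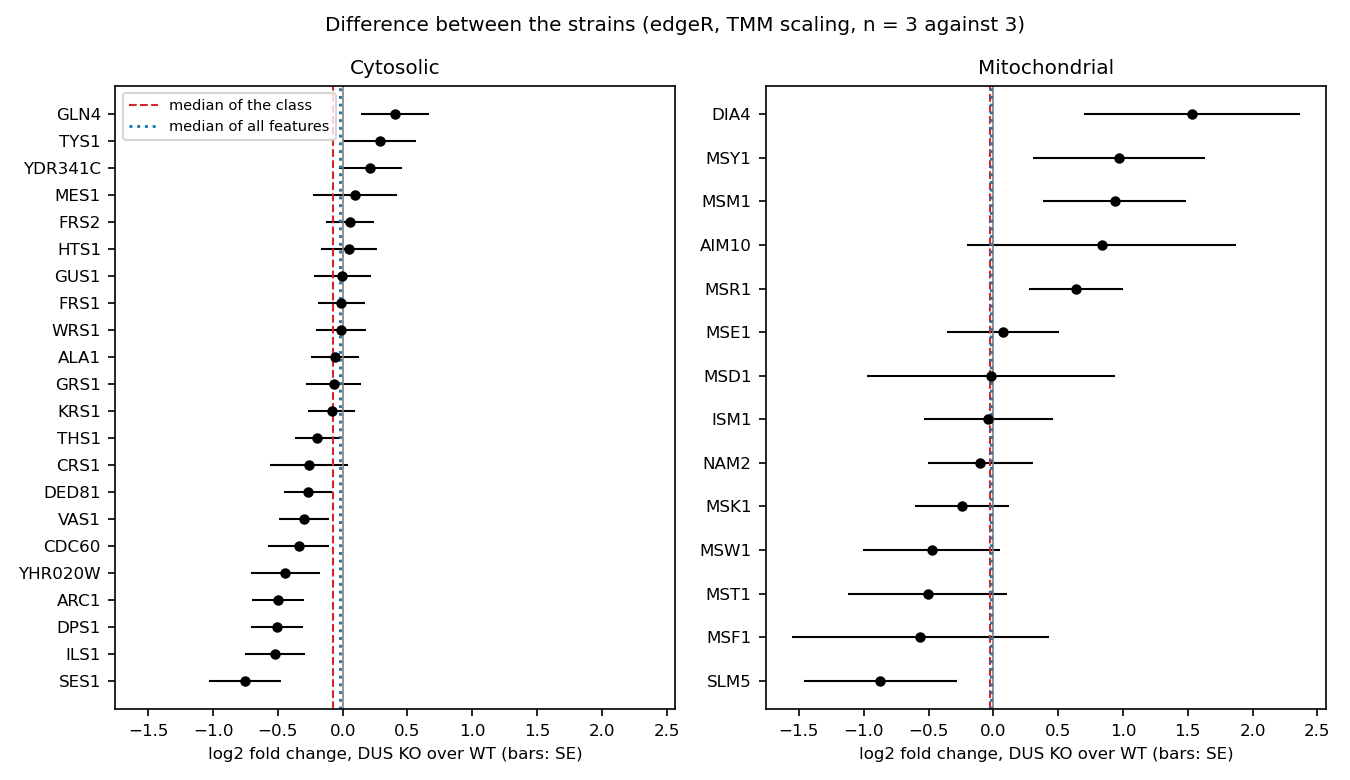
Log2 fold change (DUS KO over WT, edgeR with TMM scaling, n = 3 against 3) of each cytosolic and mitochondrial gene, with bars of 1 standard error. The cytosolic points run from -0.76 (SES1) to 0.40 (GLN4), and the mitochondrial points from -0.87 (SLM5) to 1.53 (DIA4) with longer bars.

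SES1, the cytosolic seryl-tRNA synthetase (YDR023W, chromosome IV, 489508 to 490896), had the largest cytosolic difference. It had 68.7, 101 and 102 CPM in WT and 65.8, 57.3 and 31.2 CPM in DUS KO. The groups do not overlap, but the lowest WT and the highest DUS KO library lie close together, and the lowest DUS KO value comes from 21 counts. The log2 fold change was -0.76 ± 0.28 (SE) with adjusted p = 0.489. In TPM the strains overlapped, at 12.5, 17.2 and 20.1 in the WT libraries and 16.3, 12.1 and 6.89 in DUS KO. SES1 was lower in all 20 alternative settings, by -0.97 to -0.51, and called in none.

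DPS1 (YLL018C, aspartyl-tRNA synthetase, chromosome XII, 109902 to 111575) had 120, 127 and 153 CPM in WT and 107, 87.3 and 86.2 CPM in DUS KO. Every DUS KO library lay below every WT library. The log2 fold change was -0.51 ± 0.20 (SE) with adjusted p = 0.534. In TPM the strains overlapped, at 17.9, 17.9 and 24.9 in the WT libraries and 21.8, 15.2 and 15.7 in DUS KO. ILS1 (YBL076C, isoleucyl-tRNA synthetase, chromosome II, 81043 to 84261) had 77.2, 79.7 and 118 CPM in WT and 61.1, 63.4 and 68.3 CPM in DUS KO, which gave a log2 fold change of -0.52 ± 0.23 (SE) with adjusted p = 0.586. Unlike SES1 and DPS1, ILS1 shares its reads with another feature, and the difference was smaller when the pair was summed, as given below. THS1 had 357, 405 and 346 CPM in WT and 289, 344 and 337 CPM in DUS KO, which gave a log2 fold change of -0.19 ± 0.17 (SE) with adjusted p = 0.826. GUS1 had a log2 fold change of -0.0015 ± 0.22 (SE), with 322 to 422 CPM in WT and 273 to 483 CPM in DUS KO, and its sign differed between settings.

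Arc1, Mes1 and Gus1 form a complex in yeast, in which Arc1 binds tRNA and presents it to both enzymes. ARC1 (YGL105W, chromosome VII, 307437 to 308567) had 147, 219 and 166 CPM in WT and 132, 117 and 128 CPM in DUS KO. All DUS KO libraries were below all WT libraries, with a log2 fold change of -0.50 ± 0.20 (SE) and adjusted p = 0.538. Neither partner was lower in every DUS KO library, and the difference between the genes was not tested. MES1 had 35.0, 21.8 and 44.9 CPM in WT and 31.1, 34.1 and 46.0 CPM in DUS KO, which gave a log2 fold change of 0.09 ± 0.33 (SE) that turned to -0.16 without WT replicate 2, and that of GUS1 is given above. Per length, the cofactor and GUS1 were of similar level and MES1 was much lower. ARC1 over GUS1 in TPM was 0.672, 1.29 and 0.991 in the WT libraries and 0.790, 0.823 and 0.510 in DUS KO. ARC1 over MES1 was 8.58, 20.6 and 7.58 in the WT libraries and 8.71, 6.98 and 5.69 in DUS KO, where the high value goes with the lowest MES1 and the highest ARC1 library.

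Cytosolic phenylalanyl-tRNA synthetase is built from equal numbers of the products of FRS1 and FRS2, and the mitochondrial enzyme, Msf1, is a single chain. FRS1 (YLR060W) had 25.3, 27.6 and 29.8 TPM in WT and 42.3, 30.1 and 29.5 TPM in DUS KO. FRS2 (YFL022C) had 33.9, 31.8 and 38.0 TPM in WT and 47.6, 34.7 and 52.2 TPM in DUS KO. FRS2 exceeded FRS1 in all 6 libraries, by 1.34, 1.15 and 1.28 times for the WT replicates and 1.13, 1.15 and 1.77 times for those of DUS KO. The log2 fold changes were -0.0097 ± 0.18 (SE) for FRS1 and 0.06 ± 0.19 (SE) for FRS2, with adjusted p = 0.993 and 0.969, and the values of both changed sign in some alternatives.

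For 6 of the 36 members the estimated counts are not whole numbers, which shows that reads were divided with another feature. In each case the sum with 1 other feature was whole within 0.02 in all 6 libraries. RefSeq's annotation of R64 (sacCer3) lists none of these 6 partners. Where only 1 open reading frame of the deposited length exists on the strand that the systematic name gives, its position was read from the R64 genome. YOR169C (465 nt, chromosome XV, 651376 to 651840, minus strand) overlaps the 3′ end of GLN4 on the opposite strand by 357 nt. YBL077W (432 nt, chromosome II, 80897 to 81328, plus strand) overlaps the 3′ end of ILS1 by 286 nt, again on the opposite strand. YER087C-A (552 nt, chromosome V, 331817 to 332368, minus strand) covers 490 nt of AIM10, or 28.3% of its length. YGR265W (411 nt, chromosome VII, 1021648 to 1022058, plus strand) overlaps the 5′ end of MES1 by 206 nt. YBR121C-A (159 nt, chromosome II, 482326 to 482484) lies wholly inside GRS1 on the same strand. For YOR335W-A (81 nt), the partner of ALA1, 2 frames of that length were found and no position is given.

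The 2 partners whose start codon lies inside a synthetase gene are shown by the bases around that codon, in capitals, read 5′ to 3′ on the partner's strand.
YGR265W in MES1, chrVII:1021635-1021664, plus strand: ttcaaaatcatccATGacatatcttagaat
YBR121C-A in GRS1, chrII:482469-482498, minus strand: tcatccaaaatttaATGaaatcaaagacat

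The division weighed most on 3 members. GLN4 was given 24.4%, 23.1% and 24.5% of the summed count in WT and 28.4%, 18.1% and 21.2% in DUS KO, although the overlap is only 14.7% of its length. AIM10 was given 3.86%, 3.49% and 31.6% in the WT libraries and 23.8%, 24.1% and 17.7% in DUS KO, out of sums of 132, 67 and 133 counts for the WT replicates and 191, 105 and 14 for those of DUS KO. The low WT values of AIM10 thus belong to libraries in which the partner took nearly all of the reads. ILS1 was given 38.6%, 47.1% and 58.6% in the WT libraries and 33.9%, 35.0% and 36.6% in DUS KO. The shares of ILS1 thus do not overlap between the strains and are lower in DUS KO, while the sums were 873, 838 and 901 for the WT replicates and 1071, 563 and 127 for those of DUS KO. For MES1 the share was 89.1% to 100%, for GRS1 95.5% to 100% and for ALA1 98.0% to 100%.

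**Figure D5:**
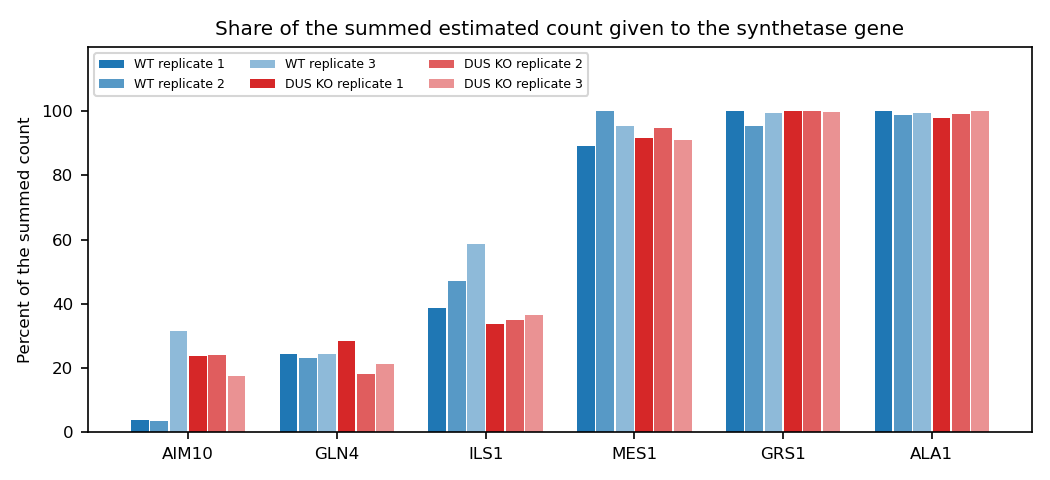
Percent of the summed estimated count of a synthetase gene and its overlapping partner that was given to the synthetase gene, in each WT (blue) and DUS KO (red) library, on an axis from 0. ILS1 takes 38.6% to 58.6% in WT and 33.9% to 36.6% in DUS KO, AIM10 takes 3.49% to 31.6% in WT, and MES1, GRS1 and ALA1 take 89.1% or more.

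The fit was repeated with each of these pairs summed, a setting chosen after the data were seen. The log2 fold change of ILS1 went from -0.52 to -0.06 (adjusted p = 0.963), and that of AIM10 from 0.83 to 0.28 (adjusted p = 0.904). GLN4 went from 0.40 ± 0.26 (SE, adjusted p = 0.732) to 0.50, which was past an unadjusted but not the adjusted threshold (adjusted p = 0.486). The others moved little, to 0.12 for MES1, -0.05 for ALA1 and -0.09 for GRS1. The sources used here do not say whether the counting used strand. The partners of GLN4, ILS1, AIM10 and MES1 lie on the opposite strand, and reads were still divided with them. The counting thus did not keep the strands of these pairs apart. Where they overlap, reads of the gene and of its partner cannot be told apart, so the values of GLN4, ILS1, AIM10 and MES1 are uncertain to that degree.

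Of the mitochondrial genes, DIA4, MSY1 and MSM1 had the largest differences, and all rest on few counts. DIA4, the mitochondrial seryl-tRNA synthetase (YHR011W, chromosome VIII, 127780 to 129120), had 5, 13 and 21 counts in the WT libraries, against 36, 31 and 6 in those of DUS KO. Scaled to depth these are 1.15, 2.62 and 4.71 CPM in WT and 6.06, 9.98 and 8.91 CPM in DUS KO, and the groups do not overlap. The log2 fold change was 1.53 ± 0.83 (SE) with adjusted p = 0.666. DIA4 and SES1, the serine pair, lay on opposite sides, and neither was called.

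MSM1, the mitochondrial methionyl-tRNA synthetase (YGR171C, chromosome VII, 840824 to 842551), had 6.18, 3.83 and 8.52 CPM in WT and 15.8, 8.70 and 10.4 CPM in DUS KO. The highest WT and the lowest DUS KO library nearly touch. The log2 fold change was 0.93 ± 0.55 (SE), with adjusted p = 0.696. MSY1 (YPL097W, tyrosyl-tRNA synthetase, chromosome XVI, 364952 to 366430) had 8.25, 1.21 and 12.1 CPM in WT and 16.3, 15.5 and 8.91 CPM in DUS KO, which gave a log2 fold change of 0.97 ± 0.66 (SE) with adjusted p = 0.763. Here the groups overlap, and without WT replicate 2, which had 6 counts, the value was 0.49. MSW1 had 15.6, 24.8 and 14.4 CPM in WT and 15.7, 18.0 and 1.49 CPM in DUS KO. Its log2 fold change of -0.48 ± 0.53 (SE, adjusted p = 0.874) was -0.12 without replicate 3 of DUS KO. MSK1 and MSD1 had -0.24 ± 0.36 and -0.02 ± 0.96 (SE), with adjusted p = 0.914 and 0.996, and both changed sign in some settings. AIM10 had 0.83 ± 1.04 (SE, adjusted p = 0.896), and 3.02 without WT replicate 3, the library that holds most of its WT counts. SLM5 (YCR024C, asparaginyl-tRNA synthetase), named after its value was seen, had the lowest mitochondrial value, -0.87 ± 0.59 (SE, adjusted p = 0.758), and overlapped between the strains.

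The promoters of the classes were read from the R64 genome for 1 known regulator each. Gcn4 is the activator of amino acid synthesis genes when amino acids run short, and its core motif is TGACTC. The Hap complex activates respiratory genes and binds CCAAT. Both motifs were searched on both strands in the 300 bases before each start codon, in which no match to one overlapped a match to the other among the members. TGACTC was found before 10 of 22 cytosolic genes (45.5%) and before 1 of 14 mitochondrial genes (7.14%, MSW1), beside 466 of 6026 promoters of all genes (7.73%). CCAAT was found before 9 cytosolic (40.9%) and 5 mitochondrial genes (35.7%), beside 41.7% of all promoters, so it did not separate the classes. The cytosolic genes with TGACTC were ALA1, YDR341C, DED81, CRS1, ILS1, KRS1, YHR020W, THS1, VAS1 and ARC1. DED81 and YHR020W, for asparagine and proline, are neighbours that point away from each other with a gap of 437 nt, and they share a single match.

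Some of these matches are shown with the bases around them, 5′ to 3′ on the strand of the gene, with the motif or its reverse complement GAGTCA in capitals, to let the surroundings be compared. In ILS1, KRS1 and THS1 the motif is followed by the same bases, tta.
ILS1, chrII:84346-84375, minus strand, motif begins 102 bases before the start codon: tcgaaacaatgaTGACTCttaagcatgaaa
KRS1, chrIV:525294-525323, plus strand, 134 bases before: tgaatgatgaaaTGACTCttaatgaacttc
THS1, chrIX:212283-212312, plus strand, 204 bases before: ttactgtttaaaTGACTCttaccttgtgat
ALA1, chrXV:949139-949168, minus strand, 47 bases before: gattaaggaactTGACTCtttctttcaaga
DED81 (shared with YHR020W), chrVIII:143802-143831, minus strand, 261 bases before: caagacattcagTGACTCaagcatcgctta
VAS1, chrVII:672076-672105, plus strand, 98 bases before: atttttttagaaGAGTCAcccatacagcct
ARC1, chrVII:307407-307436, plus strand, directly before the start codon: agaaagtataatatagagtttcaaGAGTCA
MSW1 (mitochondrial), chrIV:1003732-1003761, plus strand, 260 bases before: ctatgcacatcaGAGTCAgattccttaaat

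The cytosolic genes with TGACTC had a lower median log2 fold change than those without it. With the motif the median log2 fold change was -0.26 and 9 of 10 genes were negative. Without it the median was -0.01 and 7 of 12 were negative. This order held in all 20 alternative settings, with a difference between the medians of -0.39 to -0.12. The smallest of these was that without replicate 1 of DUS KO. All settings reuse the same libraries and genes, so the order holding in them is no independent support. The plan for the motifs covered their shares in the classes, and the split of fold changes by motif was added to it. DED81 and YHR020W are counted separately here, although they share a single match. Over all features the motif went with no such shift: 438 tested features with TGACTC had a median of -0.02 and 51.1% negative values, and the 5446 without it had a median of -0.02. With TPM or total counts the median of the cytosolic genes with the motif was -0.09 to 0.11, below that of all features in each of those settings, which was 0.16 to 0.29. Of the members at an unadjusted p under 0.05 with edgeR, ARC1 and ILS1 hold the motif and SES1 and DPS1 do not. With shared features summed, the log2 fold change of ILS1 was -0.06 and it was no longer under that level. These are counts and medians without a test, and a match of 6 letters is a description, not a binding site.

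Other genes that charge or handle tRNA were described as a list of 13 outside the members. None was called by edgeR or limma-voom, nor by DESeq2, which gave an adjusted p to only 4 of them. With edgeR, at an unadjusted p under 0.05, 2 were higher in DUS KO and 0 lower, beside 3.33% and 4.93% of all features, and the median log2 fold change was 0.21. DESeq2 and limma-voom also put 2 under that level. Both were picked out after their values were seen. CCA1 adds the CCA end that every tRNA needs before it can be charged, and had 38.2, 20.8 and 33.9 CPM in WT and 56.1, 74.4 and 53.5 CPM in DUS KO. Its groups do not overlap in CPM or TPM, and the log2 fold change was 1.00 ± 0.29 (SE) with adjusted p = 0.332. THG1 adds the extra guanosine of histidine tRNA, which the enzyme encoded by HTS1 recognizes. It had 31.8, 24.6 and 28.0 CPM in WT and 46.0, 50.6 and 46.0 CPM in DUS KO, which gave a log2 fold change of 0.76 ± 0.26 (SE) with adjusted p = 0.466.

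Mitochondria have no glutaminyl-tRNA synthetase of their own, and their glutamine tRNA is first charged with glutamate and then amidated by the products of PET112, HER2 and GTF1. PET112 had the largest difference upward in the list. It had 6.41, 0 and 11.2 CPM in WT and 17.0, 6.76 and 13.4 CPM in DUS KO, so the groups overlap (log2 fold change 1.08 ± 0.99 (SE), adjusted p = 0.835). The largest difference downward was that of GRS2, a second copy of the glycyl-tRNA synthetase gene. It had 3.89, 4.44 and 10.5 CPM in WT and 5.22, 2.90 and 4.46 CPM in DUS KO, with a log2 fold change of -0.58 ± 0.80 (SE) and adjusted p = 0.907. GRS1 had 18.3, 12.4 and 18.6 TPM in WT, far above the 0.522, 0.558 and 1.54 TPM of GRS2.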

How the data were processed

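RNA-seq of polyA RNA from WT (BY4741) and DUS KO was used, 3 libraries each, and the D mapping libraries of the series were not analysed here. The authors deposited, per library, the estimated count and the TPM of each of 6612 features. Their methods describe adapter trimming with bbduk, collapse of PCR duplicates by molecular identifier and alignment to sacCer3 with bbmap. Which program made the estimated counts is not stated in the labels or methods used here. These counts are not normalized and are not whole where reads were divided between features. TPM is normalized by the authors for effective length and depth, and so moves when a few short, abundant features differ.

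After rounding of the counts, filterByExpr removed 728 features, and 5884 were tested with edgeR 4.0.16 (quasi-likelihood, robust, no replicate block) in R 4.3.3 with TMM scaling and Benjamini-Hochberg adjustment at 0.05. TMM factors were 0.918 (replicate 1), 0.878 and 1.03 for WT, and 1.08, 1.09 and 1.03 for DUS KO. The standard error is the size of the log2 fold change divided by the square root of F. Depth limits the mitochondrial genes most, with 99 to 1013 counts in all per library against 2038 to 17198 for the cytosolic genes.

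The members and lists were chosen with earlier results of these data known. Genes given with values in every library are, per class, the 3 of largest log2 fold change, the 2 highest and 2 lowest by mean TPM, and MES1, GUS1, ARC1, FRS1 and FRS2 by role, with the largest change each way in the list of tRNA charging genes. CCA1 and THG1 were added after their values were seen. Other settings tried were other scaling factors (median ratio, upper quartile, or library totals only), filters (none, or a minimum of 10 counts per library), tools (DESeq2 1.42.0, limma-voom with limma 3.58.1, and limma on log2 TPM plus 1 or 0.1, also with mean TPM 10 or more), a replicate block, removal of a length trend (loess, span 0.75), leaving out each library and, added after seeing the data, summing of shared features. Gene positions are those of RefSeq on R64, in which all 36 members have the deposited length.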

Additional observations from a re-analysis of the deposited data

How the results depend on the processing

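No member was called in any of 20 alternative settings, and the lowest adjusted p of a member was 0.197 (SES1, DESeq2). Not every setting could call a mitochondrial gene. DESeq2 gave no mitochondrial gene an adjusted p, and the filter of at least 10 counts in every library kept 4 of the 14. The number of features called, 5 of 5884, was 3 with total counts alone, 1 with at least 10 counts in every library, 58 with DESeq2 (of 2006 with an adjusted p), 0 with limma-voom, 1 with limma on log2(TPM + 1), 2 on log2(TPM + 0.1), and 1 to 12 when a library was left out, the extremes being 12 (no WT replicate 1) and 1 (no DUS KO replicate 1). The median log2 fold change of the cytosolic genes, -0.08, was 0.10 with total counts alone, 0.22 on log2(TPM + 1), 0.22 on log2(TPM + 0.1), 0.22 with a mean TPM of at least 10, and -0.151 to -0.054 with a library left out. That of the mitochondrial genes, -0.03, was 0.24 on log2(TPM + 0.1) and -0.20 to 0.12 with a library left out. The moves with total counts and in the TPM settings go with the median of all features, which was -0.02 with TMM, 0.16 with total counts, 0.22 and 0.29 on log2 TPM with a pseudocount of 1 and 0.1, and 0.23 with a mean TPM of at least 10. The last setting leaves no mitochondrial gene. With a library left out the median of all features stayed between -0.034 and 0.022, so the moves of the class medians there, with -0.20 (no WT replicate 1) and 0.12 (no WT replicate 2) for the mitochondrial genes, are not matched by it. With class medians in place of sums, the mitochondrial level was 8.24% of the cytosolic in WT and 9.15% in DUS KO.

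Some values changed sign, most of them near 0 and none of them called. Genes given with values in every library come first. GUS1 became 0.0068 with median-ratio scaling, 0.17 with total counts, 0.0055 with DESeq2, 0.28, 0.29 and 0.28 in the TPM settings and -0.26 to 0.16 with a library left out. THS1 became 0.11, 0.11 and 0.11 in the TPM settings. FRS1 became 0.0077 with upper-quartile scaling, 0.17 with total counts, 0.016 with limma-voom, 0.28, 0.28 and 0.28 in the TPM settings and -0.127 to 0.056 with a library left out. FRS2 became -0.0012 with limma-voom and -0.083 to 0.17 with a library left out, MES1 -0.16 to 0.35, and GRS2 -0.84 to 0.0047. MSK1 became 0.095 and 0.11 on log2 TPM with a pseudocount of 1 and 0.1. MSD1 became 0.011 with upper-quartile scaling, 0.16 with total counts, 0.22 with limma-voom and -0.42 to 0.39 with a library left out. Other members changed sign as well. MSF1, at -0.56, ran from -1.11 to 0.24 and kept its sign in 14 of 18 settings. TYS1, at 0.29, ran from -0.03 to 0.59 and kept its sign in 19 of 20. ALA1, DED81, CRS1, GRS1, HTS1, KRS1, WRS1, VAS1, MSE1, NAM2 and ISM1 also had both signs. The cause of these changes was not tested. SES1, DPS1, ARC1 and ILS1 were negative, and DIA4, MSM1, MSY1, AIM10 and GLN4 positive, in every setting that gave them a value.

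Replicate numbers gave no sign of pairing the samples, although 3 libraries per strain cannot settle whether they were paired. Correlations of the deviations of same-numbered libraries were 0.027, -0.037 and -0.072, and 1 of 6 libraries correlated best with its own number. With a replicate block 3 features were called, and 8 with the length trend removed as well. The block called no member and left the class medians at -0.08 and -0.0043.

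Depth limits replicate 3 of DUS KO, with 656162 counts, and the mitochondrial genes, of which 11 stay under 100 counts in every library. Differences of the size seen for DIA4 or MSY1 were not separable from the spread between libraries at this depth.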
